A study of Mus musculus with 9 samples.

Results

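The Arraystar mouse lncRNA array carries 691 probes whose design names begin with mouselincRNA. They were taken by that name from the spots that are not control spots, and none of them carries an ultraconserved-segment name. They are 691 of the 59709 transcript probes on the array. Each member is 1 probe with 1 spot, and its name ends in + or -, which is read here as the strand of the region it was designed to. By name they cover 351 regions, 340 with a probe on both strands and 11 with a probe on 1 strand, for 343 plus probes and 348 minus probes.

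The arrays profiled primary cortical neurons of Swiss albino mouse embryos at embryonic day 15, without any genetic change, on 9 single-colour arrays. The maturation arrays held RNA of neurons kept in B27-supplemented medium for 2, 4, 6 or 8 days, named by day below. The other 5 arrays held Day 6 cultures after 0, 2, 4, 6 or 8 hr of oxygen-glucose deprivation (OGD), an in vitro model of ischaemia, and 24 hr of reperfusion in medium without B27, which the 0 hr culture also received. Each condition had 1 array; the methods state that each array for Days 2 to 8 and 0, 2 and 4 hr OGD held the pooled RNA of 4 experiments, and they do not say so for 6 and 8 hr. There was therefore no replicate of any condition, no test was run, and every difference below describes these arrays.

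LincRNAs are long transcripts of the stretches between protein-coding genes. Some act on chromatin or on neighbouring genes, many are restricted to particular tissues, brain included, and most are less abundant than mRNAs. Regions transcribed on both strands give separate RNAs whose levels can move apart, and a probe for each strand reads them separately. After removal of rRNA, RNA was labelled along its whole length by random priming, which does not need a poly(A) tail. The probe names used here carry no sequence, genome position or gene symbol, so the place of these regions in the genome is not given here, no sequence is shown, and markers of neurons and other brain cells were not analysed here. In pooled cultures, fewer cells of a type and less RNA per cell cannot be told apart.

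Fewer mouse lincRNA probes than transcript probes in general gave a signal. Feature Extraction called 193 members (27.9%) well above background on Day 2, where it called 44.0% of all transcript probes. Day 6 had 170 members (24.6%, against 38.9%) and Day 8 had 196 (28.4%, against 42.3%). In the OGD series 0, 2, 4, 6 and 8 hr had 234 (33.9%), 226 (32.7%), 247 (35.7%), 150 (21.7%) and 162 members (23.4%), against 51.4%, 45.6%, 49.1%, 37.2% and 33.1% of all transcript probes. Members were below all transcript probes on each of the 9 arrays, with shares close to those of the human-derived lincRNA probes, of which 20.6% to 34.4% were called on the arrays other than Day 4. Day 4 stood apart with 400 members (57.9%), but 54.4% of the spots of the 20 negative probes were also called there, against 0.833% to 9.58% on the other arrays. Against the 95th percentile of the negative spots of the same array, 109 members passed on Day 4, the fewest of any array. That was 15.8%, against 29.1% of all transcript probes. Elsewhere 183 to 217 members passed, and 41.8% to 46.0% of all transcript probes.

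**Figure D1:**
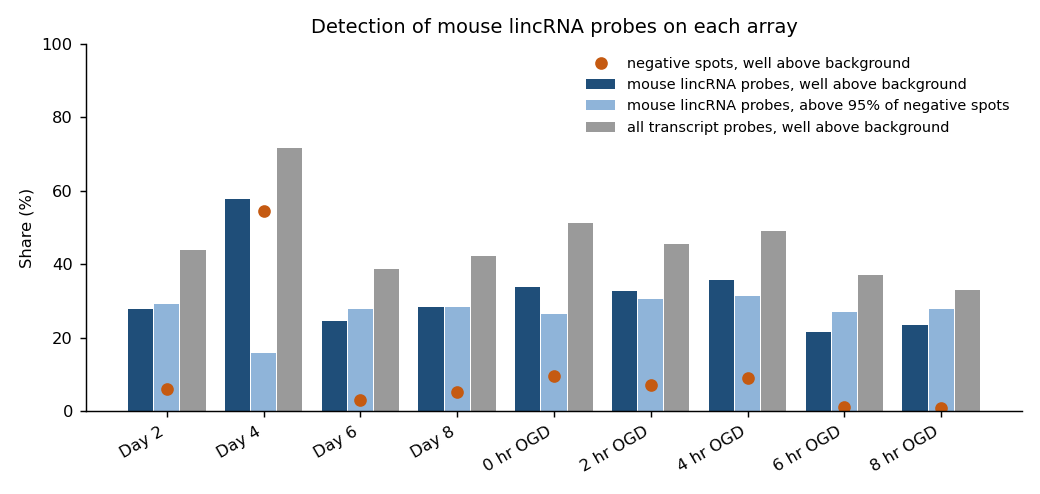
Share of mouse lincRNA probes called well above background (dark bars) or brighter than 95% of the negative spots of the same array (light bars), share of all transcript probes called (grey bars) and share of negative spots called (points), in percent, for each of the 9 arrays. Day 4 has the tallest dark bar, 57.9%, together with the highest point, 54.4%, and the shortest light bar, 15.8%.

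Most members were either on everywhere or almost nowhere. On all 9 arrays 132 members (19.1%) were well above background, and on none of them 236 (34.2%); over all transcript probes these shares were 29.2% and 22.3%. A further 158 members were called on 1 array, and for 128 of these it was Day 4. On 2 arrays 64 members were called, and on 3 to 8 arrays 101. Day 4 also called 71.6% of all transcript probes. Shares of all transcript probes for these counts, and for the count without Day 4 below, are not given. None of them is read as particular to the members. Called somewhere in the maturation series were 423 members, but 235 when Day 4 was left out, and somewhere in the OGD series 308. Of the 59709 transcript probes, 44048 were called somewhere in maturation, among those with a value on Days 2 and 6. Somewhere in the OGD series 34678 were called, among those with a value at 0 and 6 hr. The share called also moved with the array: 78 members called at 0 hr were not called at 8 hr (11.3% of the 691, against 18.9% of all transcript probes) and 6 the other way (0.868%, against 0.585%), while the weakest normalized signal that counted as well above background was 3.68 log2 units at 0 hr and 5.06 at 8 hr. In 71 of the 78 the signal at 0 hr did not exceed the 8 hr threshold.

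Among the 132 members seen on every array the normalized signal, averaged over the arrays, had a median of 6.67 log2 units, with quartiles of 5.71 and 8.16. For the 17431 transcript probes seen on every array these values were 7.05, 5.98 and 8.78. A few members were very bright: 11 of the 132 averaged 12 or more (8.33%, against 6.17% of these probes). Another 47 averaged between 4 and 6 (35.6%, against 25.6%). The brightness of a probe also depends on its sequence, so the order of these members is not an order of transcript abundance. mouselincRNA1188-, the brightest, had background-corrected signals of 83800, 97300, 103000 and 94700 on the 4 maturation arrays in order of age, and 96300, 86900, 129000, 106000 and 91600 on the 5 OGD arrays in order of duration. After normalization it stayed between 16.39 (0 hr OGD) and 16.74 (8 hr OGD), the smallest range of the 132. mouselincRNA1267- was also bright and steady, between 13.88 at 0 hr and 14.52 at 8 hr. mouselincRNA0478+ was steady at a low level, between 5.41 at 6 hr and 6.01 on Day 6.

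The other members of the brightest 4 moved more. mouselincRNA0158- lay between 14.39 on Day 4 and 15.47 at 4 hr OGD. mouselincRNA0305- was low on a single array: with 13.05 on Day 6, it was below its 14.82 and 14.78 on Days 2 and 4, its 14.91 on Day 8 and the 14.64 to 15.04 of the 5 OGD arrays. Its SLR, the signal log ratio or log2 difference between 2 arrays, was therefore 1.86 for Day 8 against Day 6 and 1.59 for 0 hr OGD against Day 6, while Day 8 differed from Day 2 by 0.10. The modelled error of each of these SLRs, from the error that Feature Extraction gives each spot, was 0.204, which covers the spot and not the culture. Over the 132 members the range across the arrays had a median of 1.47 log2 units, against 1.38 for the 17431 transcript probes seen on every array. Without Day 4 these medians were 1.20 and 1.096.

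The median of the members seen on every array shifted between arrays. Relative to Day 6, their median SLR was -0.02, -0.61 and -0.18 on Days 2, 4 and 8 and -0.41 in the 0 hr OGD culture, then 0.23, 0.13, -0.18 and 0.33 after 2, 4, 6 and 8 hr of deprivation. For all 17431 transcript probes seen on every array the medians were -0.07, -0.51, -0.08, -0.06, 0.03, 0.03, -0.05 and 0.09 in the same order. The members' median was thus lower than that of all transcripts at 0 hr OGD and higher at 2 and 8 hr. Single members differed: 27 of the 132 were above their Day 6 level at 0 hr OGD (20.5%, against 46.4% of all probes). After 2, 4, 6 and 8 hr of deprivation 87, 85, 39 and 92 were (65.9%, 64.4%, 29.5% and 69.7%, against 52.0%, 52.9%, 44.4% and 55.6%). Among the human-derived lincRNA probes the shares were 19.4% at 0 hr and 66.8%, 62.7%, 28.1% and 77.0% at 2 to 8 hr. The human-derived lincRNA probes gave nearly the same medians as the members, with -0.46 at 0 hr and 0.36 at 8 hr OGD, and the lincRNA exon probes went the same way with -0.17 and 0.28, so the shift was shared by these 3 classes of lincRNA probe. Day 4 was the lowest of the 9 arrays for 66 of the 132 members (against 45.6% of all probes) and 0 hr OGD for 37 (28.0%, against 16.7%), and 8 hr OGD was the highest for 43 (32.6%, against 18.2%). The part of array quality in these shifts was not tested.

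**Figure D2:**
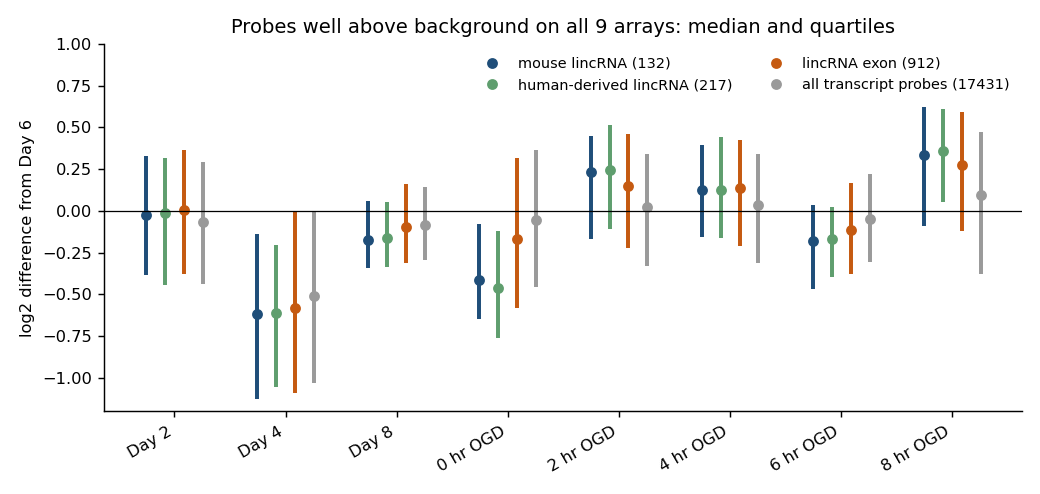
Median (point) and quartiles (line) of the log2 difference from Day 6 on each of the other 8 arrays, for the probes of 4 sets that were well above background on all 9 arrays. The mouse and human-derived lincRNA medians lie below that of all transcript probes at 0 hr OGD (-0.41 and -0.46 against -0.06) and above it at 2 and 8 hr OGD.

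For the change over the days of culture, members called well above background anywhere in the maturation series were counted, and a member passed the threshold when its SLR was above 1 or below -1. A probe that passes this filter only through the array where it is bright will tend to differ, so the counts are given again for members seen on all 4 arrays. On Day 4 relative to Day 2, 110 of 421 members were higher (26.1%, against 22.0% of all transcript probes counted the same way) and 78 lower (18.5%, against 16.8%). On Day 6 relative to Day 2, 59 of 422 were higher (14.0%, against 10.6%) and 39 lower (9.24%, against 13.2%). On Day 8 relative to Day 2, 55 of 422 were higher (13.0%, against 11.2%) and 54 lower (12.8%, against 13.9%). Between Day 6 and Day 8, which shared a scan, 33 of 423 were higher on Day 8 (7.80%, against 6.78%) and 31 lower (7.33%, against 5.69%). The members' shares on Day 8 were thus near those of all probes. On Day 6 a larger share of members than of all probes was higher and a smaller share lower.

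Most of these calls came from dim probes. Among the 147 members well above background on all 4 maturation arrays, Day 4 had 3 higher (2.04%, against 7.09%) and 40 lower (27.2%, against 21.4%), the reverse of the balance above. Day 6 had 12 higher (8.16%, against 5.8%) and 7 lower (4.76%, against 4.0%). Day 8 had 6 higher (4.08%, against 5.28%) and 7 lower (4.76%, against 4.63%). Between Day 6 and Day 8, 5 were higher on Day 8 (3.40%, against 1.98%) and 2 lower (1.36%, against 1.04%). The median SLR of these members from Day 2 was -0.58, 0.04 and -0.10 on Days 4, 6 and 8, and -0.65, 0.22 and 0.004 when each array was scaled to its 75th percentile. That scaling also changed the balance of the first counts, to 147 higher and 55 lower on Day 4, 49 and 57 on Day 6 and 42 and 71 on Day 8. It moved the median SLR of the transcript probes seen on all 4 arrays too, from -0.416 to -0.578, 0.079 to 0.266 and 0.01 to 0.167. Over all transcript probes, without a detection filter, the medians went from -0.089 to -0.191, 0.021 to 0.106 and 0.021 to -0.151. The share of all probes past the threshold is not given for that scaling, so the changed balance is not read as particular to the members. Days 2 and 4 were recorded in a different scan from Days 6 and 8, so that scan and age of culture cannot be told apart in a difference between these pairs.

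A rise at every step of culture was rare among the members and among the other lincRNA probes. Of the 132 seen on every array, 1 rose at each step from Day 2 to Day 8 (0.758%) and 7 fell at each step (5.30%). Over all transcript probes 2.78% rose and 2.93% fell at each step. These shares were 0.461% and 4.61% for the human-derived lincRNA probes and 0.877% and 3.18% for the lincRNA exon probes. The member that rose, mouselincRNA0622+, was picked out after its values were seen. Its normalized signals were 4.49, 5.33, 5.34 and 5.44 in order of age, so nearly all of the rise lay between Days 2 and 4.

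The 5 largest mean rises on Days 6 and 8, relative to Day 2, were taken among members seen on Days 2, 6 and 8. mouselincRNA0118+ was the brightest of the 5, with normalized signals of 10.11, 11.59, 11.55 and 11.25 in order of age. Its SLR from Day 2 was 1.49, 1.44 and 1.15, with a modelled error of 0.204, and the 3 later days lay close together. mouselincRNA0077+ had 7.10 and 7.15 on the early days and 8.75 and 8.09 on Days 6 and 8. mouselincRNA1616- had 5.78, 3.98, 7.33 and 6.99 in the same order. The remaining pair, mouselincRNA1052+ and mouselincRNA1623+, averaged an SLR of 1.47 and 1.36 on Days 6 and 8 (0.53 and 0.47 with normexp) and, like mouselincRNA1616-, were lower on Day 4 than on Day 2. The mean of mouselincRNA1616- was 1.39, and 0.78 with normexp.

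The largest fall, of mouselincRNA0085-, exceeded the largest rise in size. Its background-corrected signals were 306, 120, 50.6 and 49.9 in order of age, and its normalized signals were 8.59, 5.94, 6.06 and 5.80. The SLR from Day 2 was -2.65, -2.53 and -2.79, with modelled errors of 0.209 to 0.227. Days 2 and 4 shared a scan. The 95th percentile of the negative spots was 91.0 on Day 4, against 120 for this member. The part of scan or array quality in its fall was not tested. Its mean on Days 6 and 8 was -2.66, and -1.86 with normexp. It stayed low at 0 hr OGD (5.51) and lay between 5.74 and 6.83 at 2 to 8 hr. mouselincRNA0753+ fell later, with 8.92 and 8.86 on Days 2 and 4 and then 7.77 and 7.22. mouselincRNA1606-, among the brightest members, had 15.05, 15.46, 14.17 and 13.86. mouselincRNA1511+ and mouselincRNA1103- had a mean SLR of -1.34 and -1.18 on Days 6 and 8, and -0.64 and -0.38 with normexp. That of mouselincRNA1606- was -1.03, and -0.73 with 75th percentile scaling. mouselincRNA0753+ and mouselincRNA1606- were again high after the longest deprivation, with 9.35 and 15.21 at 8 hr OGD, against 7.09 and 12.99 at 0 hr.

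The 0 hr OGD culture is the reference of the OGD series, and it already differed from the Day 6 culture recorded in the same scan. Of 241 members seen on either of these arrays, 28 were higher at 0 hr (11.6%, against 11.8% of all probes) and 20 lower (8.30%, against 4.78%). Of the 163 seen on both, 8 were higher (4.91%, against 4.85%) and 13 lower (7.98%, against 4.73%), and the median SLR was -0.41, against -0.07 for all probes. A rise from 0 hr can therefore also be a return to the level of Day 6, so the counts over the OGD series, the medians and the strand summary are also given against Day 6. The cultures differed in the 24 hr without B27 and in age, and these cannot be told apart.

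Relative to 0 hr, more members than transcripts in general were higher at 2, 4 and 8 hr OGD. Of the 308 members called anywhere in the OGD series, 95 were higher at 2 hr (30.8%, against 14.7%) and 41 lower (13.3%, against 15.5%). At 4 hr, 76 were higher (24.7%, against 12.4%) and 40 lower (13.0%, against 13.0%). At 6 hr more were lower than higher, as among all probes, with 22 higher (7.14%, against 5.41%) and 53 lower (17.2%, against 11.3%). At 8 hr, 88 were higher (28.6%, against 15.0%) and 46 lower (14.9%, against 18.8%). These counts describe 5 arrays, with the 0 hr array in each comparison. A member may enter them through a single array where it is bright, so they are given again for members seen on all 5 arrays.

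The 135 members well above background on all 5 OGD arrays also had a larger share of rises than all transcripts at 2, 4 and 8 hr. At 2 hr, 38 were higher (28.1%, against 12.3%) and 8 lower (5.93%, against 8.26%). At 4 hr, 27 were higher (20.0%, against 8.91%) and 9 lower (6.67%, against 6.14%). At 6 hr, 6 were higher (4.44%, against 2.54%) and 9 lower (6.67%, against 4.18%), while 92 of the 135 lay above their 0 hr level (68.1%, against 52.1%). At 8 hr, 42 were higher (31.1%, against 15.9%) and 8 lower (5.93%, against 10.5%). Their median SLR from 0 hr was 0.68, 0.55, 0.23 and 0.80 in order of duration, against 0.01, 0.01, 0.03 and 0.08 for all probes.

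**Figure D3:**
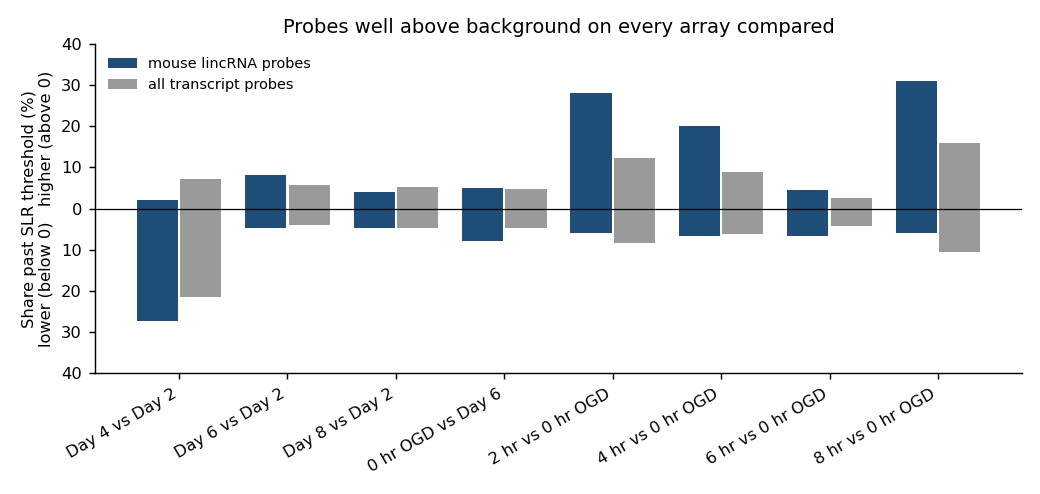
Share of probes with an SLR above 1 (bars above 0) or below -1 (bars below 0), in percent, among those well above background on every array of the series compared, or on both arrays for 0 hr OGD against Day 6. Mouse lincRNA probes (dark) exceed all transcript probes (grey) among rises at 2, 4 and 8 hr OGD, with 28.1%, 20.0% and 31.1%.

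Against Day 6 the excess of rises was smaller. Of the same 308 members, 37 were higher at 2 hr than on Day 6 (12.01%, against 7.33%) and 19 lower (6.17%, against 7.1%). At 4 hr, 32 were higher (10.4%, against 7.61%) and 17 lower (5.52%, against 6.65%). At 6 hr, 12 were higher (3.896%, against 7.95%) and 36 lower (11.7%, against 7.85%). At 8 hr, 35 were higher (11.4%, against 8.94%) and 22 lower (7.14%, against 12.6%). The median SLR of the 135 members, less that of all probes, was 0.67, 0.55, 0.21 and 0.72 in order of duration against 0 hr, and 0.20, 0.09, -0.13 and 0.23 against Day 6. The members stayed above all transcripts at 2, 4 and 8 hr against either reference, by a smaller amount against Day 6, and at 6 hr the direction turned. With a normexp background correction, which raises low signals, 9 members were higher and 10 lower than 0 hr at 2 hr (2.92% and 3.25%, against 1.54% and 1.99% of all probes), and 11 and 10 at 4 hr (3.57% and 3.25%, against 2.03% and 1.89%). At 6 hr there were 3 and 8 (0.974% and 2.60%, against 0.706% and 1.41%), and at 8 hr 20 and 7 (6.49% and 2.27%, against 3.61% and 2.67%).

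The largest mean rises from 0 hr, among members seen on all 5 OGD arrays, are given here beside Day 6. mouselincRNA0561- had the largest, with background-corrected signals of 1000, 1680, 3750, 2130 and 1210 from 0 to 8 hr, and normalized signals of 9.24, 11.12, 11.34, 10.91 and 10.96. Its SLR from 0 hr was 1.88, 2.10, 1.67 and 1.72, with a modelled error of 0.204. Its level on Day 6 was 10.84, so that against Day 6 the same arrays gave 0.28, 0.50, 0.07 and 0.12. mouselincRNA0009+ likewise had 4.48 at 0 hr against 6.43 on Day 6, and none of its 4 later OGD arrays, at 5.47 to 6.30, exceeded Day 6; its mean SLR of 1.46 from 0 hr was 0.51 with normexp.

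mouselincRNA0522- rose above every array without OGD. Its normalized signals were 9.60, 10.02, 10.12 and 9.83 in order of age and 9.33 at 0 hr, then 10.50, 10.72, 10.72 and 11.05 in order of duration. Its SLR was 1.17, 1.39, 1.39 and 1.72 from 0 hr and 0.38, 0.60, 0.60 and 0.93 from Day 6. The 4 deprived cultures did not overlap with the other 5. mouselincRNA0002+ had 8.72 at 0 hr, then 10.23, 9.89, 9.53 and 10.37, and mouselincRNA0166+ had 5.40, then 6.83, 7.20, 5.73 and 6.91. Both were above their Day 6 level, 9.61 and 6.38, at 2, 4 and 8 hr and below it at 6 hr, and the mean of mouselincRNA0166+ went from 1.27 to 0.68 with normexp.

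The 5 members with the largest mean falls from 0 hr were chosen for a high 0 hr level relative to the later OGD times. Their values are a description of that choice. mouselincRNA1592+ had background-corrected signals of 146 on Day 6, 405 on Day 8 and 1050 at 0 hr, then 66.9, 168, 114 and 98.3 in order of duration. Its normalized signal was 9.32 at 0 hr and 6.31, 6.91, 7.08 and 7.20 at the later times, an SLR of -3.00, -2.41, -2.24 and -2.12 with modelled errors of 0.207 to 0.214. Against Day 6, where it stood at 7.49, the SLR was -1.17, -0.58, -0.41 and -0.29.

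mouselincRNA0772-, brighter, had 12.15 at 0 hr and 9.89, 10.20, 10.30 and 10.43 at 2 to 8 hr, close to its 10.33 on Day 6. mouselincRNA0188+ had 8.84 at 0 hr and 6.54, 7.02, 7.01 and 6.76 at 2 to 8 hr, all below its 7.71 on Day 6. mouselincRNA1453+ averaged an SLR of -1.78 from 0 hr and gave -0.69, -0.37, -0.51 and -0.16 against Day 6. mouselincRNA0714+ averaged -1.80, or -1.08 with normexp, and gave -0.84, -0.38, -0.46 and 0.23 against Day 6.

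For these 5 members the level at 0 hr exceeded that on Day 6 by 1.13 to 1.83 log2 units, while the mean SLR from 0 hr lay between -2.44 and -1.78.

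**Figure D4:**
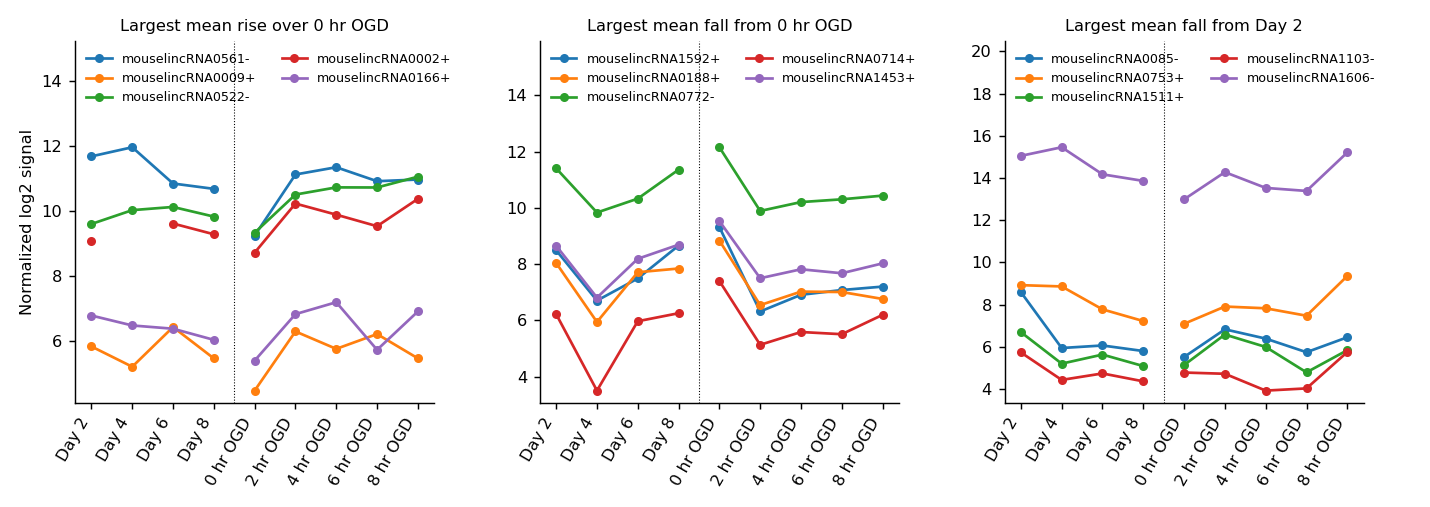
Normalized log2 signal on the 9 arrays of the 5 members with the largest mean rise from 0 hr OGD (left), the 5 with the largest mean fall from 0 hr OGD (middle) and the 5 with the largest mean fall from Day 2 on Days 6 and 8 (right); points are single arrays and the dotted line parts the maturation arrays from the OGD arrays. In the middle panel 0 hr OGD is the highest point of each line, and mouselincRNA0002+ has no value on Day 4.

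Setting the 4 deprived arrays against the 3 undeprived arrays of the same scan (Day 6, Day 8 and 0 hr) does not rest on 0 hr alone. Of the 132 members seen on every array, 21 were higher on all 4 deprived arrays than on all 3 others (15.9%, against 9.6% of the 17431 transcript probes) and 10 were lower (7.58%, against 9.28%). With arrays scaled to the 75th percentile, 11 were higher (8.33%, against 6.15%) and 13 lower (9.85%, against 7.25%), so the larger share of members among the higher was narrower and the lower share lay above that of all probes. mouselincRNA0522-, mouselincRNA0561- and mouselincRNA0118+ were among the 21, with the closest arrays of either side 0.38, 0.07 and 0.02 log2 units apart. mouselincRNA0188+, mouselincRNA1592+, mouselincRNA1453+ and mouselincRNA0013- were among the 10, with gaps of 0.69, 0.29, 0.16 and 0.12. In 23 of these 31 members the gap was smaller than 0.213, the median modelled error of an SLR at 2 hr over the members seen on all 5 OGD arrays.

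Some members were seen at only an end of a series, and their change is a lower bound, taken against the weakest signal that counted as well above background on the dim array. From Day 2 to Day 8, 37 members were gained (5.36% of the 691, against 5.28% of all transcript probes) and 34 lost (4.92%, against 6.91%). Of these, 6 gains (0.868%, against 1.35%) and 1 loss (0.145%, against 1.58%) exceeded a factor of 2, and for 7 of the losses the bound did not exceed 1 and shows no fall. mouselincRNA0861+ was at least 15.3-fold higher on Day 8 than on Day 2, with background-corrected signals of 265 and 3.60; it was also not called on the other 7 arrays, where it lay between 3.04 and 4.50. mouselincRNA1514+ and mouselincRNA1658- were likewise called on Day 8 alone, at 148 and 147, at least 8.56-fold and 8.50-fold above Day 2. The loss past the factor was mouselincRNA0772+, the opposite strand of a member described above, at least 2.33-fold lower on Day 8, with 9.01 against 43.9 on Day 2; for mouselincRNA1341+ and mouselincRNA0935+ the bounds were 1.86-fold and 1.79-fold.

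From 0 hr to 8 hr OGD, 6 members were gained (0.868%, against 0.585%), each by more than a factor of 2. mouselincRNA0358+ had 3.15, 2.77, 30.6, 3.59 and 207 from 0 to 8 hr, at least 24.8-fold higher at 8 hr, and was called on Day 4 as well, at 43.5. mouselincRNA0134+ was called at 8 hr alone, at 113 against 2.90 to 4.33 on the other arrays of the series, at least 13.3-fold higher. mouselincRNA1098- was called at 8 hr, at 67.8 and at least 7.89-fold higher, and on Day 4, at 99.5. On Day 6 these 3 members were not called, at 3.21 to 3.39. Each is 1 spot on 1 array, without a second spot to set it against. Of the 78 members lost (11.3%, against 18.9%), 71 had a bound that did not exceed 1 and shows no fall, and 1 exceeded a factor of 2: mouselincRNA0797- had 197 at 0 hr and 7.96 at 8 hr, at least 4.11-fold lower, and lay between 7.80 and 25.0 on the other 7 arrays. mouselincRNA0078+ and mouselincRNA0892- had bounds of 1.86-fold and 1.60-fold.

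Each strand was called in a minority of regions on the arrays other than Day 4, and both strands in few. On Day 6, 18 of the 340 regions with both probes had both strands well above background, 59 the plus strand alone, 73 the minus strand alone and 190 neither. At 0 hr OGD these counts were 42, 69, 79 and 150, and at 8 hr 18, 56, 68 and 198. The product of the shares of plus and minus probes called gives 20.6, 39.5 and 18.7 regions with both strands on these arrays, close to the 18, 42 and 18 counted. Day 4, with its high negative spots, had both strands in 113 regions, and the other 8 arrays 18 to 44. Over all 9 arrays, 16 regions had both strands on every array and 98 had 1 strand, 44 the plus and 54 the minus. Against the 95th percentile of the negative spots, both strands passed on every array in 8 regions.

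In these 16 regions the strands moved apart about as often as together. The mean SLR from 0 hr over the 4 deprived arrays had the same sign on both strands in 7 regions and opposite signs in 9. It passed the threshold on both strands in 1 region, mouselincRNA0188, and on a single strand in 8. With normexp no region passed on both strands, since the mean of mouselincRNA0188- went from -1.10 to -0.79, and 6 passed on a single strand. Against Day 6 the signs were the same in 7 regions and opposite in 9, and 1 region, again mouselincRNA0188, passed on a single strand. Across the 16 regions the mean SLRs of the strands had a Pearson correlation of 0.10 from 0 hr and 0.11 from Day 6, a description over regions that share the same arrays. For Days 6 and 8 against Day 2 the strands had the same sign in 8 regions, with a correlation of 0.35.

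mouselincRNA1592 had the widest gap. Its plus strand averaged -2.44 from 0 hr, as described above, while its minus strand stood at 7.52, 8.32, 7.88, 7.41 and 8.43 from 0 to 8 hr, a mean SLR of 0.49. Over the days of culture the SLR from Day 2 was -1.79, -1.001 and 0.17 on the plus strand and -0.47, -0.99 and -0.89 on the minus strand on Days 4, 6 and 8, so the SLRs of the strands were alike on Day 6 and, on Day 8, the plus strand was within its modelled error of 0.205 of the Day 2 level. Against Day 6 the OGD means were -0.61 and 0.43. mouselincRNA0706 differed too: the plus strand had 10.23 at 0 hr and 7.86, 8.25, 8.66 and 10.18 at 2 to 8 hr, back at its 0 hr level by 8 hr, and the minus strand had 7.16 and then 7.74, 7.46, 7.21 and 8.05. On the plus strand of this region Day 8 (10.29) also lay above Day 6 (8.20), and on the minus strand the same days gave 7.09 and 7.41.

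mouselincRNA0188 was the region in which both strands fell, by different courses. The plus strand was already at -2.29 at 2 hr, while the minus strand had SLRs of 0.20, -1.73, -0.81 and -2.07 in order of duration. In mouselincRNA0543 the minus strand rose, with an SLR of 1.13, 1.17, 0.89 and 1.24 at 2 to 8 hr, but its mean of 1.11 was 0.84 with 75th percentile scaling, and it stood 1.31 log2 units lower at 0 hr than on Day 6; the plus strand gave 0.30, 0.35, 0.13 and -0.18, and its mean of 0.15 turned to -0.13 with 75th percentile scaling. In mouselincRNA0013 the plus strand averaged 0.19 and the minus strand -0.70.

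In 2 regions, picked out after their values were seen, the strands moved apart against every undeprived array of the scan. The minus strand of mouselincRNA0522 was above all 3 of them on each deprived array, as given above, and its plus strand below them: 6.39 on Day 6, 6.47 on Day 8 and 6.46 at 0 hr, against 5.90, 6.02, 5.93 and 5.86 at 2 to 8 hr. In mouselincRNA1235 the plus strand was above, with 8.17 to 8.88 on the deprived arrays against 7.74 to 8.16, by a gap of 0.004 log2 units between the closest arrays. Its minus strand was below, with 5.69 to 5.82 against 5.87 to 6.22, by a gap of 0.05.

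**Figure D5:**
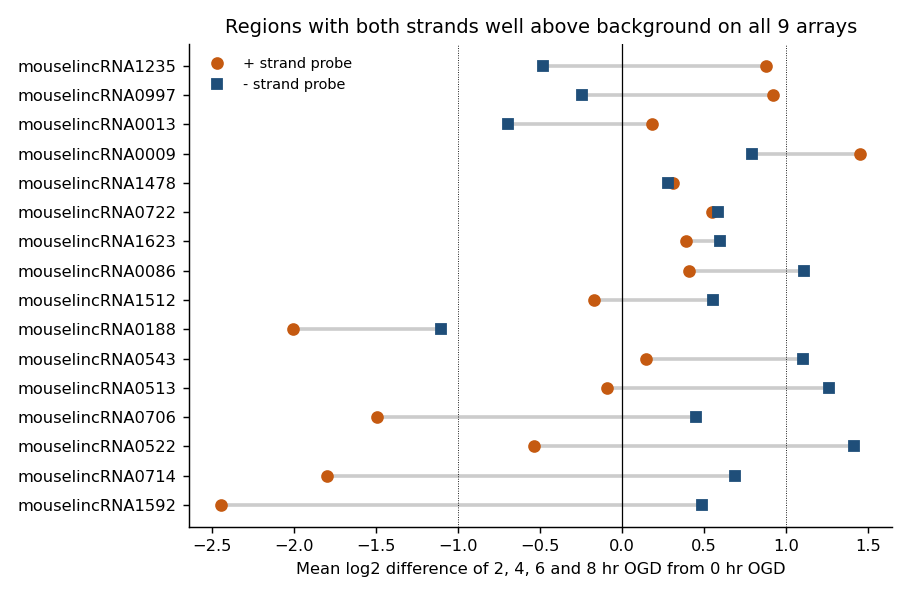
Mean log2 difference of the 2, 4, 6 and 8 hr OGD arrays from the 0 hr array for the plus (circles) and minus (squares) probe of the 16 regions with both strands well above background on all 9 arrays; dotted lines mark the SLR threshold of 1 in either direction. The gap is widest in mouselincRNA1592, where the plus strand averages -2.44 and the minus strand 0.49, and both strands lie below -1 in mouselincRNA0188.

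No opposite change in maturation and OGD rested on called spots alone. By SLR, of 31 members above 1 on both Day 6 and Day 8, 4 were below -1 at 2 or more OGD times (12.9%, against 22.2% of all transcript probes counted the same way), and of 27 below -1 on both days, 1 was above 1 at 2 or more OGD times (3.7%, against 7.74%). These counts are against 0 hr, and none of the 5 members was well above background on all 9 arrays. mouselincRNA0892- had a background-corrected signal of 12.8 on Day 2, 21.6 on Day 6 and 29.0 on Day 8, then 69.4 at 0 hr and 9.91, 30.2, 13.6 and 13.1 after deprivation, but was not called on Day 2 or at 2, 6 and 8 hr. mouselincRNA0323-, mouselincRNA0651+ and mouselincRNA0843- were called on 2, 3 and 2 arrays, and on neither Day 2 nor Day 6. Their SLRs between those days were 1.44, 1.79 and 1.12, with modelled errors of 0.723, 1.567 and 1.254. Of these members, mouselincRNA0843- lies outside the rule for named members and was added after its values were seen. In the other direction mouselincRNA0772+ had 43.9 on Day 2, 9.01 on Day 8, 8.43 at 0 hr and 24.9 at 4 hr OGD, and of these it was called on Day 2 and at 4 hr only.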

How the data were processed

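The authors deposited the scanner intensity of each spot from Feature Extraction 11.0.1.1, with a background-corrected signal, the software's error for it, and flags that mark bright and outlying spots. A second deposited table gives processed intensities of 29929 probes on a linear scale and holds 233 members, the same 233 that were well above background on 3 or more arrays. The extracted signal is rounded to 3 significant digits and is a small positive stand-in where a spot does not exceed background, so differences between such spots carry no information.

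Outlier spots were left out, which removed 2 member values. The methods name quantile normalization; here repeated spots were averaged as log2 values and the 9 arrays quantile normalized together. SLR is a log2 difference, with a threshold of 1 in either direction. With 1 array per condition no test was run, and precision is limited by how few arrays there are. The modelled error combines the errors of both spots.

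Named members were the 4 brightest and 3 steadiest of those seen on all arrays, the 5 largest mean rises and falls in each series, the 3 largest bounds in each direction, 5 strand pairs, and members with opposite changes. The members, rules and lists were chosen with earlier results of these data known. Alternatives were 75th percentile scaling, normalization within each series, the authors' values, normexp with an offset of 50 on the median pixel signal, other detection filters, a common floor and other references. Quantile normalization and the SLR threshold were tested on simulated data, with changes placed only in probes seen on all arrays. Detection calls, normexp, bounds, strand counts and changes of dim probes were not tested in this way. Normexp ran in limma 3.58.1 under R 4.3.3, and all else in Python 3.11.15 with pandas 2.3.3, numpy 2.4.6 and matplotlib 3.10.9.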

Additional observations from a re-analysis of the deposited data

How the results depend on the processing

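How many members were counted and called depended on the treatment of dim spots. With detection required on every array of a series, 147 members in maturation and 135 in OGD were counted, and the members past the threshold were 43, 19 and 13 on Days 4, 6 and 8 against Day 2, 7 for Day 8 against Day 6, 21 for 0 hr against Day 6 and 46, 36, 15 and 50 at 2, 4, 6 and 8 hr against 0 hr. With a common floor these 9 counts were 30, 16, 14, 10, 19, 47, 36, 18 and 54, and with normexp they were 16, 10, 8, 7, 9, 19, 21, 11 and 27. Above the 95th percentile of the negative spots, 258 members in maturation were counted, with 100, 61 and 70 past the threshold on Days 4, 6 and 8, 34 for Day 8 against Day 6, and 8 regions with both strands on every array. In the authors' processed values, which hold 233 members, the counts were 78, 47 and 48 on Days 4, 6 and 8, 16 for Day 8 against Day 6, 77 at 4 hr and 40 at 6 hr. With no detection filter, 105 passed for 0 hr against Day 6 and 115 at 6 hr. Shares of all transcript probes under the common floor, the negative percentile, the authors' values and no filter are not given here. The same holds for normexp apart from 2 to 8 hr OGD. All these counts describe the treatment of dim spots, and no excess among members is read from them.

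The OGD results depended on the reference. With Day 6 in place of 0 hr, 56, 49, 48 and 57 members passed at 2, 4, 6 and 8 hr, and the median SLR of members less that of all transcript probes was 0.203, 0.087, -0.129 and 0.23, a change of direction at 6 hr. With Day 8, added after the data were seen, 88, 75, 64 and 82 passed at 2, 4, 6 and 8 hr. Higher were 17.53%, 14.94% and 13.64% of members at 2, 4 and 8 hr, against 8.61%, 8.72% and 9.23% of all transcript probes. Lower were 11.04%, 9.416% and 12.99%, against 9.8%, 8.84% and 12.7%. At 8 hr 42 were higher and 40 lower, and at 6 hr 14 and 50 (4.545% and 16.23%, against 7.03% and 9.65%). The median difference was 0.314, 0.239, -0.087 and 0.331, again turned at 6 hr. With normexp it was 0.426, 0.347 and 0.377 at 2, 4 and 8 hr against 0 hr. The cause of these differences was not tested. Scaling to the 75th percentile moved the median SLR of all transcript probes, without a detection filter, at 8 hr from 0.14 to 0.49. The members' median less that of the probes detected with them went from 0.72 to 0.74. That scaling left 11 members higher on all deprived arrays than on the undeprived arrays of the scan. Of the 28 mean SLRs of named members, 23 were past the threshold, 21 of them under that scaling, 15 with normexp and 23 in the authors' values. The scaling lost mouselincRNA1606- and mouselincRNA0543-, and normexp lost mouselincRNA1052+, mouselincRNA1616-, mouselincRNA1623+, mouselincRNA1511+, mouselincRNA1103-, mouselincRNA0009+, mouselincRNA0166+ and mouselincRNA0188-. Falls of dim probes can be missed at this signal over background. No paired analysis was possible because the arrays carry no shared replicate numbers.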
